A study of Danio rerio with 20 samples.

Results

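Transcription factors that specify the retina and its photoreceptors were followed across exposures to HFPO-DA (GenX), a per- and polyfluoroalkyl acid used in place of older surfactants. The members were 9 genes chosen by name: crx, otx5, otx2, neurod1, nr2e3, rx1, rx2, vsx1 and six6b. Of these, 8 were among the 9368 genes listed, 6 passed a filter on low values on the mean over all pools that left 6933 genes, and otx2 was not analysed here.

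Embryos of the AB strain of zebrafish were kept in embryo water (control) or in pH-neutralized HFPO-DA at 0.5, 1, 2 or 10 mg/L, with exposure starting at 3 to 4 hours post fertilization (hpf). Whole embryos were collected at 72 hpf in pools of 8 to 10, each sequenced as 1 library: 3 control pools and 4 pools at each exposure, with a further control pool that the labels call an outlier not analysed here. The pools carry the letters a to d, so none of the control pools here has the letter d. Each value is a TMM-normalized value, which is scaled for library size and composition but not for transcript length, so levels are compared between pools and not between genes. The pools held 104350 to 581494 reads, and P-values measure the spread between these pools. In pools of whole embryos, fewer cells of a type and less RNA per cell cannot be told apart.

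In the vertebrate eye, homeobox factors of the Rx and sine oculis families set up the eye field and optic cup, and Otx family factors then direct cells to the photoreceptor fate. Crx, with its relative Otx5 in fish, binds the promoters of opsins and of other genes of the phototransduction cascade and is used by photoreceptors of the retina and of the pineal organ. Neurod1 takes part when photoreceptor precursors leave the cell cycle, and Nr2e3, known best from mouse and human, promotes the rod fate and holds back cone genes.

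None of the 6 measured regulators was called in any comparison of exposed embryos with control. The log2 fold changes of the 4 exposures combined were -0.24 for crx, -0.14 for neurod1, -0.05 for otx5, -0.29 for nr2e3, -0.07 for rx1 and -0.11 for six6b. Their median was -0.12, beside -0.05 for all 6933 genes and -0.43 for 40 photoreceptor effector genes (opsins, transducins, phosphodiesterases, shut-off proteins and outer segment proteins). Over all genes, 0% were called in the combined comparison (limma, Benjamini-Hochberg adjusted p under 0.1), while 330 had an unadjusted p under 0.05 and edgeR called 5 genes.

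The plot of each regulator by pool gives the values behind these changes.

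**Figure D1:**
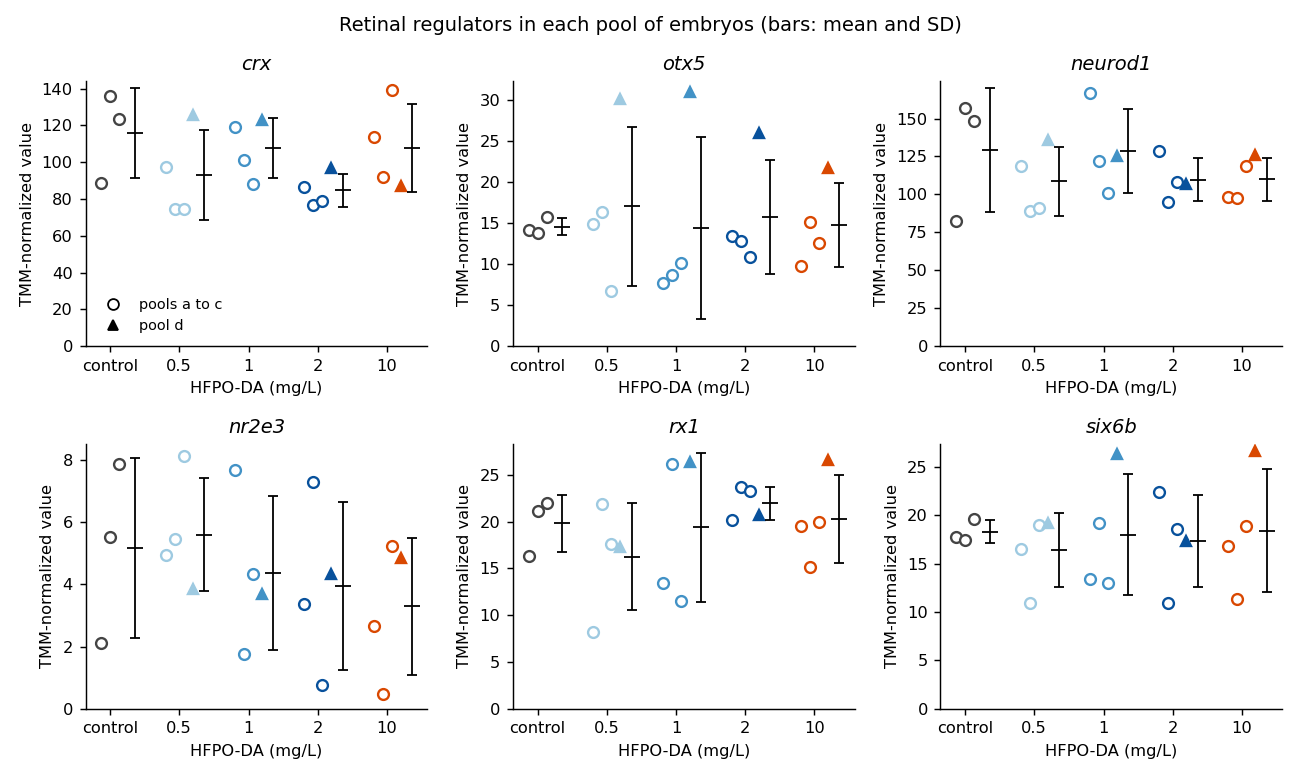
TMM-normalized values of 6 regulators (vertical axes, from 0) in each pool of embryos, by HFPO-DA exposure in mg/L (horizontal axes). Open circles are pools a to c, filled triangles are pools d, and the bars give the mean and SD of each group; otx5 was highest in pool d at all 4 exposures.

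Crx, the homeobox activator of photoreceptor genes, was read 36 to 266 times in a pool. Its values were 88.6, 136.0 and 123.5 in control pools, 97.4, 74.6, 74.6 and 125.7 in the 0.5 mg/L pools, 119.0, 101.2, 88.0 and 122.9 in the 1 mg/L pools, 86.3, 76.6, 79.0 and 96.9 in the 2 mg/L pools, and 113.5, 91.8, 139.4 and 87.1 in the 10 mg/L pools. Of the 16 exposed pools, 7 lay below every control pool, 1 lay above and 8 lay within the control range, so the groups overlapped.

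Crx averaged 116 ± 24.5 in control pools (SD, n = 3), 93.1 ± 24.2 with 0.5 mg/L, 108 ± 16.2 with 1 mg/L, 84.7 ± 9.14 with 2 mg/L and 108 ± 23.9 with 10 mg/L (SD, n = 4 each). Ordered by level, control came first and 2 mg/L last, and no neighbours in that order differed by more than the larger of their SDs. The log2 fold change was -0.43 (SE 0.18) at 2 mg/L, with an unadjusted p of 0.020 and an adjusted p of 0.912 in limma. It was -0.33 for 0.5 mg/L (adjusted p 0.834), -0.10 for 1 mg/L (adjusted p 0.998) and -0.11 for 10 mg/L (adjusted p 0.986 in limma), each with an SE of 0.19. Over all genes, limma called 0% for 0.5 mg/L, 0% for 1 mg/L, 0.0144% for 2 mg/L and 0.0144% for 10 mg/L.

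For the 4 exposures combined the change of crx had an SE of 0.16 and an adjusted p of 0.980. It was -0.42 without control pool a and -0.12 without control pool b, and it was not called either way. Among the 4 exposures themselves, 0% of genes were called by the limma F test, and crx had an adjusted p of 0.964 there.

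Neurod1, a basic helix-loop-helix factor that endocrine cells of the pancreas and many brain neurons also use, had a wide range among control pools. It measured 82.2, 157.1 and 148.6 in control pools, 118.9, 89.2, 90.9 and 135.9 in the 0.5 mg/L pools, 166.9, 122.2, 100.9 and 125.2 in the 1 mg/L pools, 128.9, 94.9, 108.4 and 107.1 in the 2 mg/L pools, and 98.4, 97.4, 118.5 and 125.8 in the 10 mg/L pools. No exposed pool was below the control range, and 15 of 16 lay within it.

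Neurod1 averaged 114 ± 20.3 over the exposed pools (SD, n = 16) and 129 ± 41.0 in control pools (SD, n = 3). Its combined log2 fold change of -0.14 (SE 0.16) had an adjusted p of 0.980 in limma. Leaving out control pool a or b moved that change to -0.44 or 0.03. Of 6 endocrine pancreas markers, a list that holds neurod1 itself, 3 were above control and 3 below, and none was called. Their log2 fold changes ran from -0.33 to 0.93. The highest were ins and sst2, the insulin and a somatostatin gene, at 0.93 and 0.88, with unadjusted p-values of 0.0471 and 0.0450 in limma. The part of these markers in the neurod1 values was not tested.

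Otx5, the Otx family member that regulates pineal genes in zebrafish, was highest in the pools with the letter d. It measured 14.2, 13.8 and 15.7 in control pools, 14.9, 16.4, 6.78 and 30.1 in the 0.5 mg/L pools, 7.68, 8.73, 10.1 and 31.0 in the 1 mg/L pools, 13.4, 12.8, 10.8 and 26.0 in the 2 mg/L pools, and 9.75, 15.1, 12.6 and 21.8 in the 10 mg/L pools. The last value of each exposure is the pool with the letter d, and at every exposure it was the highest of the 4.

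Otx5 averaged 15.5 ± 7.71 over the exposed pools (SD, n = 16) and 14.6 ± 1.03 in control pools (SD, n = 3). Its combined log2 fold change was -0.05 (SE 0.33; adjusted p 0.996 in limma), 0.26 with edgeR and 0.19 with DESeq2 on the reads recovered from the values. Without the pools with the letter d, 9 of the remaining 12 exposed pools lay below every control pool, and the combined log2 fold change was -0.36 (SE 0.31; adjusted p 0.909 in limma). Leaving these pools out took the highest value from each exposure and none from control, so a lower exposed level was fixed in advance. The 12 pools left held 4 to 16 reads of otx5 each, and the control range was narrow, at 13.8 to 15.7.

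Rx1 and six6b, homeobox factors of the early eye, had exposed means near those of control. Rx1 averaged 19.5 ± 5.39 over the exposed pools (SD, n = 16), with 8.26 as its lowest and 26.6 as its highest value, against 19.8 ± 3.07 in control pools (SD, n = 3), where it measured 16.3, 21.1 and 22.0. Six6b averaged 17.5 ± 4.89 over the exposed pools, between 10.9 and 26.6, against 18.3 ± 1.20 in control pools, where it measured 17.7, 17.5 and 19.7. For both genes the spread over the 19 pools was about what counting error alone gives, with coefficients of variation of 25.7% for rx1 and 25.4% for six6b beside 25.3% and 26.6% from counting error. For crx the coefficient was 21.0% beside 11.1%, for neurod1 20.3% beside 10.3%, and for otx5 46.0% beside 28.5%.

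Nr2e3 was near the limit of this depth, with 79 reads over the 19 pools and 0 reads in 2 of them. It averaged 4.30 ± 2.25 over the exposed pools (SD, n = 16) and 5.17 ± 2.88 in control pools (SD, n = 3). Means were 5.17 in control, 5.60 with 0.5 mg/L, 4.36 with 1 mg/L, 3.94 with 2 mg/L and 3.30 with 10 mg/L, and each step was smaller than the larger SD of the groups beside it. The log2 fold change at 10 mg/L was -0.71 (SE 0.61), with an adjusted p of 0.969 in limma.

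The remaining members were too low to compare. Rx2, the paralog of rx1, had 8 reads over the exposed pools and 3 reads over the control pools. Vsx1, a homeobox factor of bipolar interneurons, had 1 read over the exposed pools and 0 reads over the control pools, and 0 of 1015752 control reads allows a level of up to 2.95 CPM (counts scaled to a common library size), for counting error only.

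The plot of log2 fold changes sets each regulator beside the effector genes.

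**Figure D2:**
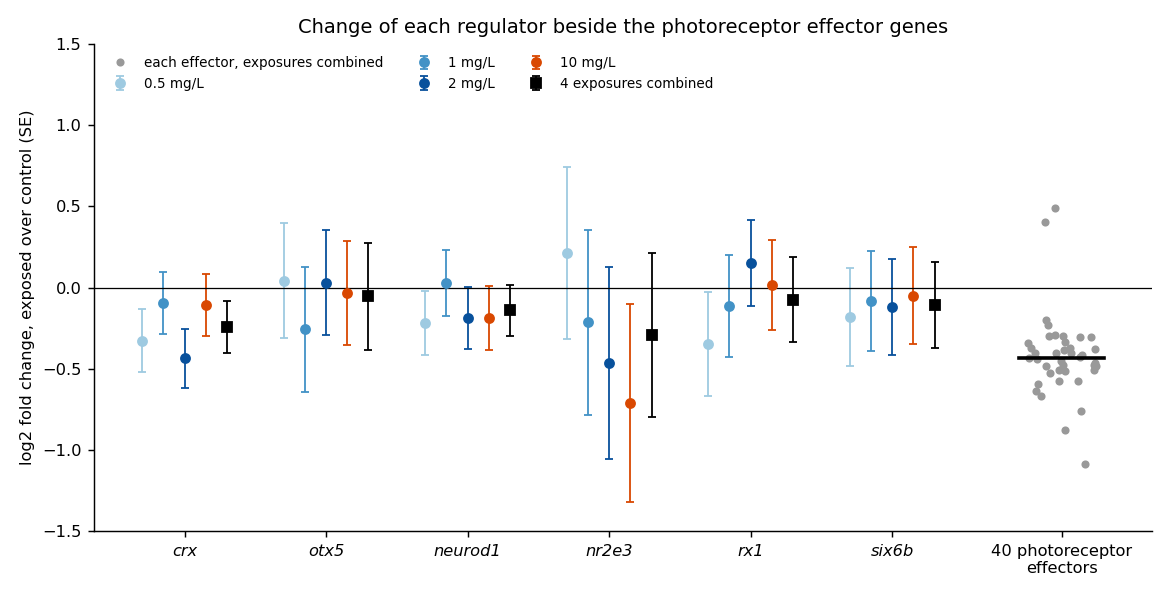
Log2 fold change of exposed over control pools (vertical axis) for 6 regulators, at each exposure (circles) and for the 4 exposures combined (squares), with SE from limma. Grey points are the 40 effector genes for the exposures combined, with their median of -0.43 as a black line; the combined values of the regulators lay between -0.29 and -0.05.

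The 40 photoreceptor effector genes had a lower median log2 fold change than the regulators. Whether Crx family factors act on each of them in these embryos was not tested. Of the 40, 38 were below control in the combined comparison and 23 of these had an unadjusted p under 0.05, though none was called. Of all 6933 genes, 3936 were below control and 162 of these had an unadjusted p under 0.05 in limma. The effector median depended on the control pools, at -0.58 without control pool a and -0.35 without control pool c. The 1 gene called for 2 mg/L was an effector, pde6hb (listed as zgc:73359), a phosphodiesterase subunit, with a log2 fold change of -0.88 (SE 0.18; adjusted p 0.0884 in limma). All 7 opsins measured were below control, with log2 fold changes from -1.09 to -0.29. Opn1sw1, the ultraviolet cone opsin, averaged 741 ± 129 over the exposed pools (SD, n = 16) and 1021 ± 75.0 in control pools (SD, n = 3), a log2 fold change of -0.48 (SE 0.12; adjusted p 0.465 in limma). Other opsins had combined log2 fold changes of -0.47 for opn1sw2 (blue cones), -0.44 for opn1mw1 and -0.51 for opn1mw2 (green cones), -0.29 for opn1lw2 (red cones) and -1.09 for rhol, none of them called. Rhol and opn1mw2 had few reads, 56 and 110 over the 19 pools, with SEs of 0.52 and 0.42. These lists had been drawn up with earlier results of these pools known, so their direction is not independent evidence.

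Whether the regulators changed less than the effectors was tested on each regulator's value minus the effector level, the mean log2 value of the 40 genes, a comparison added after the data had been seen. Crx was 0.18 higher relative to that level in exposed than in control pools (95% interval -0.23 to 0.59; adjusted p 0.670 in limma), and neurod1 was 0.28 higher (-0.13 to 0.68; adjusted p 0.491 in limma). The effector level itself averaged 5.46 in control pools and 5.04 in exposed pools, and its genes were chosen with earlier results known. A gene that did not change is therefore higher relative to it, so the positive sign alone does not set the regulators apart. Both intervals include 0 and also the rise that an unchanged gene would show. A fall as large as that of the effectors, a smaller one and no fall could not be separated for either gene. Over the 6893 genes other than effectors, 0.595% were called in this comparison, and none of the 6 regulators was. That background was not stable: 0 genes were called without control pool b, 931 without control pool a, and 0 when the variance was fitted without a trend.

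Markers of other cells were measured beside these values, and none of the neuron, muscle or lens markers was called. Of all 6933 genes, 3936 were below control and 2997 above. Of 11 neuron markers 10 were below control with 5 at an unadjusted p under 0.05, and their median log2 fold change of -0.14 was close to that of the regulators. Of 8 skeletal muscle markers 7 were above control, with a median of 0.18, and 11 lens crystallins had a median of -0.05, as did all genes. The part of these cells in the values of the regulators was not tested.

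Other regulators of the retina, drawn from 78 named genes of which 36 passed the filter, gave 0 calls in the combined comparison, with 2 below and 0 above control at an unadjusted p under 0.05. Their median log2 fold change was -0.13, with 23 of 36 below 0, beside 3936 of all 6933 genes. The 11 regulators of the early eye field and optic cup had a median of -0.16 (9 below 0), the 17 of the inner retina and ganglion cells -0.18 (11 below 0), and the 8 of photoreceptor precursors and subtypes 0.09 (3 below 0). The photoreceptor group ran from neurod4 at -0.28 (SE 0.22) to foxq2, which specifies blue cones, at 0.72 (SE 0.47). Foxq2 was near the limit of this depth, with 6 reads over the control pools and 46 over the exposed pools, and neither gene was called.

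The 3 with the smallest p-values were sox2, pou4f3 and otx1b. Sox2, a factor of retinal progenitors and Müller glia that neural progenitors of the brain also use, averaged 41.7 ± 7.19 over the exposed pools (SD, n = 16), with 24.6 as its lowest, 41.3 as its median and 52.9 as its highest value. It averaged 57.3 ± 6.77 in control pools (SD, n = 3). Its combined log2 fold change was -0.47 (SE 0.18), with an unadjusted p of 0.0135 and an adjusted p of 0.980 in limma. Pou4f3, a factor of retinal ganglion cells and of inner ear hair cells, had 20 reads in all and a log2 fold change of -0.91 (SE 0.40), and otx1b, a paralog of the Otx factors, had one of -0.46 (SE 0.24), both with an adjusted p of 0.980 in limma.

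The question whether regulators move with photoreceptor genes was also asked pool by pool, against the effector level.

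**Figure D3:**
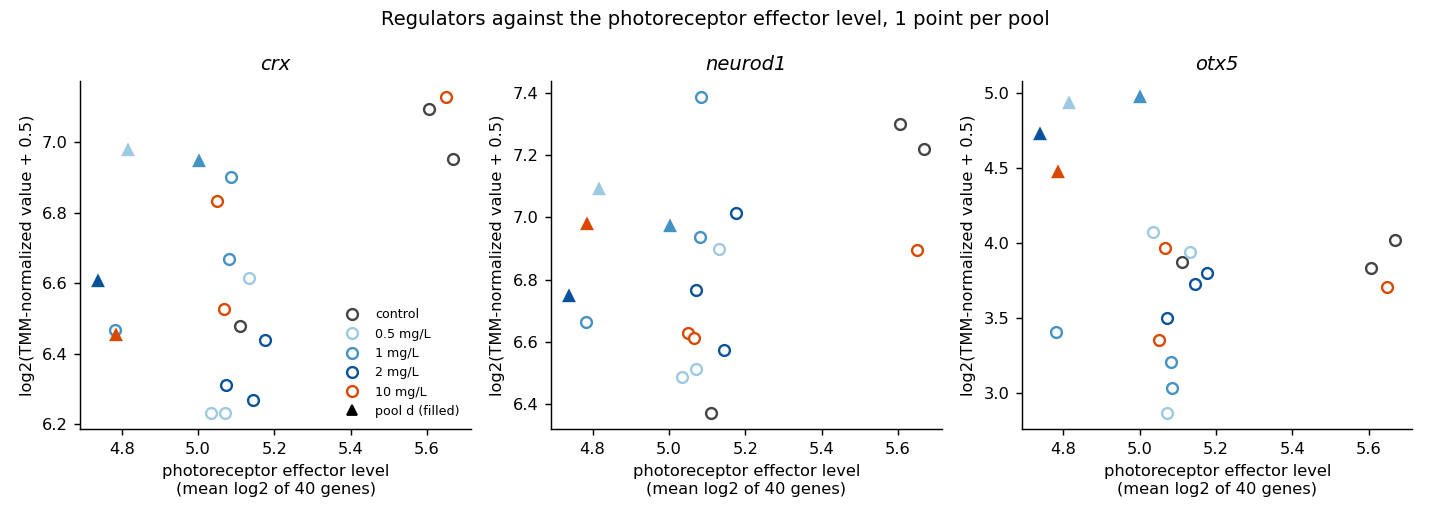
Log2 of the TMM-normalized value plus 0.5 for crx, neurod1 and otx5 (vertical axes) against the photoreceptor effector level, the mean log2 value of 40 genes (horizontal axes), with 1 point per pool. Open circles are pools a to c and filled triangles pools d; 3 pools (control b, control c and 10 mg/L c) stand apart at effector levels of 5.61 to 5.67, and the other 16 lie between 4.74 and 5.17.

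The effector level split the pools into 16 at 4.74 to 5.17 and 3 at 5.61 to 5.67, namely control b, control c and 10 mg/L c. In those 3 pools crx measured 136.0, 123.5 and 139.4, and 1 of the other 16 pools, 0.5 mg/L d, exceeded the lowest of these. For the other regulators, the same count was 7 of 16 for neurod1, 10 for otx5, 4 for nr2e3, 8 for rx1 and 8 for six6b. The share of all genes with as few such pools was not counted. The median of crx in the 16 pools was 90.2. Control pool a, with an effector level of 5.11, had 88.6 for crx and 82.2 for neurod1, the lowest neurod1 value of all pools.

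Over the 19 pools, crx changed by 0.51 on the log2 scale per unit of the effector level (SE 0.22; unadjusted p 0.0199, adjusted p 0.640 in limma). The same slope was 0.36 for neurod1 and -0.55 for otx5, beside 0.334% of genes called. Within groups, crx had a slope of 0.47 (SE 0.27; adjusted p 0.886 in limma), neurod1 0.45 and otx5 -0.99, beside 0.203% of genes called. None of the regulators was called in either fit. Without the pools with the letter d, a choice made after the data had been seen, the slope of crx was 0.86 (SE 0.24). Its adjusted p of 0.0825 in limma passed the threshold there. That fit called 54 genes other than effectors, against 23 with all pools. Over the exposed pools alone the slope of crx was 0.34 with an adjusted p of 0.998 in limma.

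A split at the largest gap in the effector level left 16 pools between 4.74 and 5.17. That range is narrow, since the split, made on the effector level itself, took out the pools with the highest levels. Values of r within it therefore cannot show whether a regulator follows the effectors. They also cannot show whether the slope of crx rested on the 3 pools with a high effector level. Within the other 16 pools, Pearson's r with the effector level was -0.21 for crx (permutation p = 0.430, adjusted over 6 regulators 0.780), and Spearman's rank correlation was -0.19 (permutation p = 0.476, adjusted 0.972). For neurod1 r was -0.12 and the rank correlation -0.04 (permutation p = 0.650 and 0.883). For otx5 r was -0.51 (permutation p = 0.0455, adjusted 0.273) and the rank correlation -0.44 (permutation p = 0.0910, adjusted 0.546), and r was 0.21 in the 12 of these pools without the letter d. In those 12 pools r was 0.01 for crx and 0.19 for neurod1. All of these tests were two-sided with 100000 permutations. Leaving out the 2 of these 16 pools farthest from their median level gave r of -0.31 for crx, -0.28 for neurod1 and -0.60 for otx5 (n = 14). Over all 19 pools, r was 0.47 for crx (permutation p = 0.0413, adjusted 0.248), 0.34 for neurod1 and -0.25 for otx5. The rank correlation of crx was 0.26 there (permutation p = 0.282, adjusted 0.466). Without 10 mg/L c and control c, the 2 farthest of the 19 pools, r was 0.21 for crx, 0.24 for neurod1 and -0.36 for otx5.

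Among the regulators themselves, crx and neurod1 varied together most. Their log2 values had r = 0.69 over the 19 pools, so that neurod1 ranked 19 among the 6932 other genes by likeness to crx. Crx had r = 0.24 with otx5, 0.31 with six6b and 0.01 with rx1. These are descriptions over libraries that differ in depth, and the log10 of the reads had r = 0.46 with crx (permutation p = 0.0485, adjusted 0.145), 0.54 with otx5 (permutation p = 0.0174, adjusted 0.104) and -0.00348 with neurod1. Within groups r with the log10 of the reads was 0.51 for crx. Most exposed pools were shallower than the control pools, and the part of depth in the changes of crx was not tested.

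The 5 genes most like crx over the 19 pools were znf609 (r = 0.77), slc32a1 (0.76), fnbp4 (0.75), rs1a (0.74) and rac3b (0.74). Slc32a1 encodes the vesicular transporter of inhibitory neurons, and rs1a encodes a retinoschisin, a secreted protein of the retina. Their combined log2 fold changes were between -0.39 and -0.24, and none was called. The 5 most like otx5 were hmgb1b (0.80), hnrnpa0b (0.80), gmfb (0.77), h1f0 (0.76) and tpt1 (0.76), of which h1f0 encodes a linker histone and tpt1 a translationally controlled protein. Their combined log2 fold changes were between -0.17 and 0.12, and none was called. Like otx5, all 5 were higher in the exposed pools with the letter d than in pools a to c, by 0.30 to 0.91 on the log2 scale. Of the 5, limma called h1f0 alone there, beside 0.721% of all genes. The part of pools d in this likeness was not tested.

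The pools with the letter d were compared with pools a to c within the exposures, after their otx5 values had been seen, so this comparison describes these pools. What the letters stand for is not given in the sources used here.

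**Figure D4:**
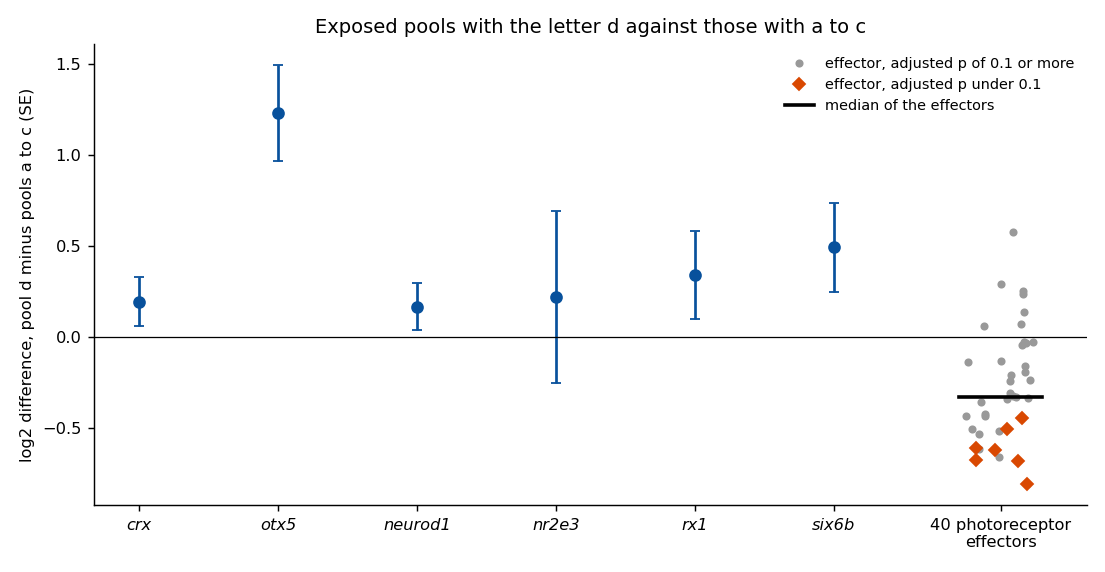
Log2 difference of exposed pools with the letter d minus exposed pools a to c of the same exposure (vertical axis), with SE from limma, for 6 regulators, and the same difference for each of 40 effector genes as points (diamonds, adjusted p under 0.1). The difference was 1.23 for otx5, and the median of the effectors, drawn as a black line, was -0.33.

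Otx5 averaged 27.2 ± 4.23 in the pools with the letter d (SD, n = 4) and 11.6 ± 3.09 in exposed pools a to c (SD, n = 12). The lowest d pool, at 21.8, was above the highest of the others, at 16.4. With the exposure in the fit, the difference was 1.23 on the log2 scale (SE 0.26; adjusted p 0.00683 in limma) and 1.26 with edgeR (adjusted p 8.09e-06), beside 0.721% of genes called by limma, 12 higher and 38 lower. EdgeR called 165 genes in this comparison, 80 higher and 85 lower. The comparison was chosen on these otx5 values, so the p-values of otx5 are not an independent test of it. The limma call was lost without pool d at 1 mg/L (difference 1.05; adjusted p 0.172) and without a trend in the variance (adjusted p 0.177).

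Most effector genes were lower in the same pools. Of the 40, 33 were lower in pools d, with a median log2 difference of -0.33 beside 0.05 for all genes, and 7 were called, all of them lower: opn1mw1, gnat1, gnat2, gngt2b, rcvrn3, prph2a and rbp4l. With edgeR 10 of the 40 were called, 9 lower and 1 higher, which was gnb3a, a transducin beta subunit, at 0.66 (adjusted p 0.00393), and without a trend in limma's variance 1 gene of all those tested was called. Gnat1 and gnat2, the rod and cone transducin alpha subunits, differed by -0.68 and -0.61. The other regulators were not called, with log2 differences of 0.19 for crx, 0.17 for neurod1, 0.22 for nr2e3, 0.34 for rx1 and 0.49 for six6b.

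Pools d were the deepest at 0.5, 1 and 2 mg/L, with 443076, 581494 and 579196 reads, and the shallowest at 10 mg/L, with 104350 reads. Pool d at 10 mg/L had only 9 reads of otx5, whose value there was the highest of its group. Crx was highest in pool d at 0.5, 1 and 2 mg/L and lowest in pool d at 10 mg/L. The neuron marker level averaged 6.13 ± 0.11 in pools d (SD, n = 4) and 6.27 ± 0.09 in exposed pools a to c (SD, n = 12), on the log2 scale. The part of depth and of neuronal content in the otx5 and crx values of pools d was not tested. Without the pools with the letter d, crx had a combined log2 fold change of -0.29 (adjusted p 0.892 in limma), and the effectors had a median of -0.37 with 38 of 40 below 0.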

How the data were processed

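Polyadenylated RNA of 19 pools was sequenced from the 3' end with molecular identifiers. The authors trimmed the reads, removed ribosomal RNA, mapped them with STAR, removed duplicates (UMI-tools 1.1.2), counted reads on genes (HTSeq 0.13.5) and applied TMM normalization. Their methods name GRCz10 as the genome build, and the labels name GRCz11 as well. The deposited values are a TMM-normalized signal, in which the authors' zeros stand at 0.5 reads. The rest (100%) came out as whole numbers of reads within 0.0001 reads once divided by the value of 1 read, and these reads were recovered. The pools held 104350 to 581494 reads.

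Values were tested with limma 3.58.1 in R 4.3.3 (two-sided, with a trend in the variance), after adding 0.5 and taking log2, over 6933 genes with a mean above 2.75 CPM, with a Benjamini-Hochberg adjusted p under 0.1 as the call. Each exposure was fitted with control alone, and the combined and F tests used 1 fit over 5 groups. edgeR 4.0.16 and DESeq2 1.42.0 were run on recovered reads. Scripts were tested on simulated data. The genes named were all regulators, the opsins (1 of them is not reported here), the 3 other retinal regulators with the smallest p and the 5 genes most like crx and otx5. Members and lists were chosen with earlier results of these data known. Slopes used the mean log2 value of 40 effectors. Comparisons of the letter d and relative to the effector level were added after the data had been seen. The comparison relative to the effector level was run with and without limma's trend, and the fit with the trend is reported, as elsewhere.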

Additional observations from a re-analysis of the deposited data

Results flagged for a closer look

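Of 24 sets of 4 pools (6 regulators at 4 exposures), 1 had a pool far from the others: otx5 at 1 mg/L, where pool d measured 31.0 and pools a to c measured 7.68, 8.73 and 10.1. Chance alone gives about 1 in 20 such sets.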

How the results depend on the processing

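With 3 control pools and 36 to 266 reads of crx in a pool, changes of the size seen for the regulators could not be resolved, and nr2e3, rx2 and vsx1 were limited by their reads. Alternatives were counted for all 6 regulators in the combined and letter d comparisons, and for crx alone at each exposure. Slopes were counted for crx, neurod1 and otx5, and the change relative to the effector level for crx and neurod1. Of these values, 626 kept their direction and their side of the threshold under the alternatives and 16 changed sign, none of them called. Among values not counted, otx5, rx1 and six6b at 1 mg/L were below control in limma and above it with edgeR. Neurod1 there did the reverse, and nr2e3 kept its sign. The crx slope passed the threshold without the pools with the letter d (0.86), and the otx5 difference for the letter d lost its call under 2 alternatives. Both comparisons were chosen after the data had been seen.

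Combined changes turned positive for otx5 (0.26 with edgeR, 0.19 with DESeq2), rx1 (0.0053 and 0.0187) and six6b (0.0042 with DESeq2). The otx5 slope without the pools with the letter d was 0.55 over all pools and 0.0188 within groups, and the nr2e3 difference for the letter d was -0.12 with edgeR. The cause was not tested. Leaving out 1 pool gave combined changes of -0.16 to 0.0371 for otx5, -0.44 to 0.0282 for neurod1, -0.77 to 0.0645 for nr2e3 and -0.20 to 0.0072 for rx1. It gave -0.28 to 0.0301 for crx at 1 mg/L, -0.29 to 0.0195 for crx at 10 mg/L, and -0.0524 to 0.49 for nr2e3 in the letter d comparison.

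Numbers of genes called in the combined comparison were 1 with quantile normalization, 5 with edgeR and 0 to 31 when 1 pool was left out. At 0.5 mg/L they were 1 without letter d and 0 to 46 with 1 pool left out, and at 1 mg/L 1 without the filter and 0 to 1. At 2 mg/L they were 2 without the filter or with edgeR and 0 with a pseudocount of 0.1, a filter of 10 CPM, zeros set to 0, quantile normalization, limma without trend, 1 fit over 5 groups, an adjusted p under 0.05, DESeq2 or without letter d, and 0 to 8 with 1 pool left out. At 10 mg/L they were 2 without the filter and 0 with a filter of 10 CPM, zeros set to 0, limma without trend, 1 fit over 5 groups, an adjusted p under 0.05 or without letter d, and 0 to 3 with 1 pool left out.

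Slopes over all pools gave 11 calls with zeros set to 0, 3 without trend, 54 without letter d, 7 in exposed pools only and 10 to 26 with 1 pool left out. Slopes within groups gave 8 with zeros set to 0, 1 without trend, 8 with opsins alone and 2 to 20 with 1 pool left out. The letter d comparison gave 1 without trend, 165 with edgeR and 27 to 78 with 1 pool left out. Relative to the effector level there were 0 calls without trend, 540 with opsins alone, 0 with the other effectors, 4 without letter d and 0 to 931 with 1 pool left out.

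The letters were not treated as pairing the pools, since not every pair of the same letter deviated together: 36 such pairs had correlations of -0.06 to 0.18 with a median of 0.01. The 108 pairs of different letters had -0.09 to 0.12 with a median of -0.0009, and 1 of them was over 0.1. The 3 pairs of the same letter over 0.1 were those among pools d at 0.5, 1 and 2 mg/L (0.18, 0.13 and 0.16), the deepest pools. Their pairs with pool d at 10 mg/L, the shallowest, had -0.02, -0.03 and -0.0022. The 6 pairs of letter d had a median of 0.06, and no control pool here carries that letter. With the letter as a replicate block, 0 genes were called in the combined comparison, 29 for 0.5 mg/L, 2 for 1 mg/L, 3 for 2 mg/L and 1 for 10 mg/L, and the combined change of crx was -0.29.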
